A study of Mus musculus with 20 samples.

Results

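The regions described here are 7272 H3K27ac regions of cultured mouse neural cells that were strong at every stage of neuronal differentiation and differed by less than 2-fold at each step. They were chosen from 140641 regions of the deposited H3K27ac table, of which they make up 5.17%. The choice took regions narrower than 1500 bp whose merged enrichment was at least 2 on the log2 scale (4-fold over the reference) in progenitors and in neurons of either day, and whose differences from progenitors to day 1 and from day 1 to day 10 both lay between -1 and 1 on that scale, the ends excluded. All values of H3K27ac in these regions took part in the choice, so they are given as descriptions and no test was run on them. The regions are called strong step-limited regions below, because the limits act on each step and not on the difference from end to end: 25.4% of them differed by 2-fold or more between progenitors and day 10 neurons in the negative direction on the deposited scale, against 14.8% of all regions narrower than 1500 bp. With the reads of the stages set to equal totals, this share of the same regions was 1.83%, against 6.72% of all regions narrower than 1500 bp. The regions had been chosen on the deposited scale, so the low share of 1.83% follows at least in part from the choice. When the limits were applied anew with equal totals, 12.3% of the 9160 regions chosen were at -1 or lower.

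The cells carry the strain label 159.2 and were taken as neuronal progenitors (NP), as neurons at day 1 (TND1) and as neurons at day 10 (TND10), with no treatment named for the H3K27ac libraries of these stages. Each stage had 2 ChIP-seq libraries, which the authors merged into 1 value per region, so no value below has an error between replicates. The labels do not say whether the 2 libraries came from separate cultures. The series also holds FAIRE-seq of the same stages and H3K27ac and RNA of day 10 neurons given NMDA or DMSO. Those tables share 0 region names with the stage table and no file used here gives coordinates or genes for the regions, so accessibility, the NMDA response, genes and sequences of these regions were not analysed.

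H3K27ac is acetylation of a lysine in the tail of histone H3. It is written mainly by the acetyltransferases p300 and CBP, removed by histone deacetylases, and found on nucleosomes beside active promoters and enhancers. Marks that stay in place while a progenitor becomes a neuron are known from promoters of widely expressed genes, whereas marks at distal enhancers more often change with cell type. Whether a region studied here is a promoter or an enhancer could not be read from the files.

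The deposited value of a region is the log2 of its reads plus 16 over a scaled reference plus 16, and reads could be recovered from it for all 7272 regions. The reads of the 140630 regions for which they could be recovered summed to 18.0 M in progenitors, 15.3 M at day 1 and 11.2 M at day 10, where M stands for 1e+06. The strong step-limited regions had a median of 500 reads in progenitors, 421 at day 1 and 346 at day 10, against 23, 24 and 22 reads at these stages in all 138116 regions narrower than 1500 bp. The counting error of the stage reads behind a single level was therefore small, with a median SE of 0.063 log2 units in progenitors, 0.068 at day 1 and 0.074 at day 10. These errors cover the counting of stage reads only. They leave out the counting error of the reference, which had a median of 30 reads in the strong step-limited regions and is shared by all stages.

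The strong step-limited regions had a median enrichment of 3.61 log2 units in progenitors, 3.38 at day 1 and 3.11 at day 10, that is 12.2-fold, 10.4-fold and 8.65-fold over the reference. The middle 50% of the regions lay between 2.95 and 4.38 in progenitors, between 2.81 and 4.07 at day 1 and between 2.62 and 3.67 at day 10. The spread thus narrowed on the high side toward day 10. All regions narrower than 1500 bp had medians of 0.64, 0.65 and 0.62 at the same stages. At day 10 the highest value among all these narrow regions, 6.06, belonged to a strong step-limited region.

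**Figure D1:**
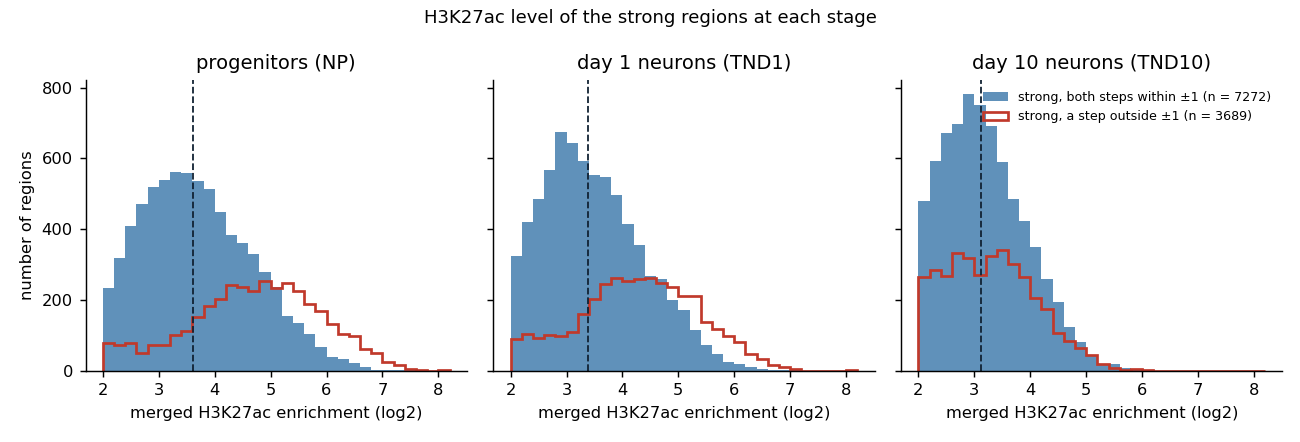
Number of regions (vertical axis) by merged H3K27ac enrichment in log2 units (horizontal axis) at NP, TND1 and TND10. Filled bars are the 7272 strong step-limited regions with their median as a dashed line, and the open outline is the 3689 regions that were as strong but had a step outside the limits. The outline lies to the right of the bars in progenitors and overlaps them at day 10.

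The same regions held a nearly fixed share of the reads. They took 27.4% of the reads in regions in progenitors, 26.6% at day 1 and 27.6% at day 10, on 10.7% of the length of all regions (6.52 Mb) and with 9.46% of the reference reads. The 3689 narrow regions that were also at least 2 at every stage but failed a step limit took 25.5%, 21.6% and 13.4% of the reads at these stages. The order by read density was another one: the median strong step-limited region had 598 reads per kb in progenitors, 508 at day 1 and 413 at day 10, against 1152, 837 and 384 reads per kb in the strong regions outside the step limits. The strong step-limited regions were thus less dense than the others in progenitors and slightly denser at day 10. The step limits act on these same reads, and 2618 of the strong regions left out had a second step of -1 or lower. The contrasts in read share and density therefore follow at least in part from the choice.

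Reaching a value of 2 at all stages was more selective than passing the steps. Of the regions narrower than 1500 bp, 19407 reached 2 in progenitors, 19018 at day 1 and 17450 at day 10, and 10961 did so at all stages. Of these 10961 strong regions, 7272 (66.3%) passed both step limits. The second step removed more than the first, since 2618 strong regions had a log2 difference of -1 or lower from day 1 to day 10, against 951 from progenitors to day 1. Steps of 1 or higher were fewer, with 304 regions at the first step and 155 at the second. Among all regions narrower than 1500 bp, a first step of -1 or lower was found in 5.45% and of 1 or higher in 6.71%, and a second step of -1 or lower in 13.1% and of 1 or higher in 8.85%.

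**Figure D2:**
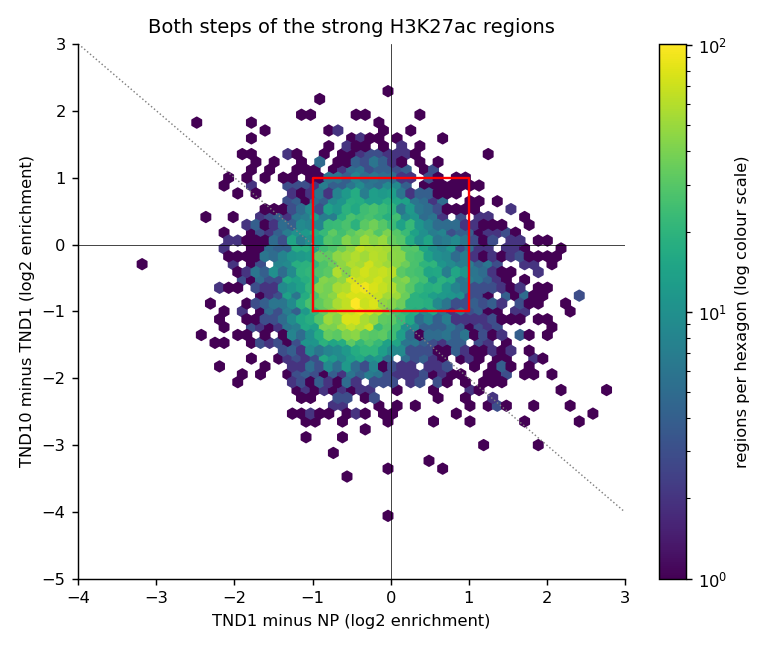
Difference TND1 minus NP (horizontal axis) against TND10 minus TND1 (vertical axis), both in log2 enrichment, for the 10961 regions with at least 2 at every stage. Colour gives the number of regions per hexagon on a log scale, the red square holds the 7272 strong step-limited regions, and the dotted line marks an end-to-end difference of -1. The densest part of the cloud lies at negative steps, and more regions leave the square through its lower side than through any other.

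Within the limits most regions leaned downward on the deposited scale. The median difference was -0.26 log2 units at the first step and -0.36 at the second, and -0.56 from progenitors to day 10, which is 0.68-fold. The counting SE of the median region was 0.093 for the first step, 0.10 for the second and 0.098 end to end. All narrow regions had medians of -0.057, -0.11 and -0.12 for the same differences. These directions depend on how the stages are scaled and on the scale used to choose the regions. When the recovered reads were set to equal totals per stage, the medians of the same 7272 regions were -0.037 at the first step, 0.069 at the second and 0.092 end to end, while the medians of all narrow regions moved to 0.069, 0.15 and 0.25. The pooled median of the strong step-limited regions was thus below that of all narrow regions end to end under both scalings, but most narrow regions are weak. At matched strength on the deposited scale the order was the opposite, with end-to-end medians of -0.079 against -0.39 at a mean of 2 to 2.5, -0.53 against -0.76 at 3 to 3.5, and -1.15 against -1.57 at 5 or more. The narrow regions of each class include those that the limits left out, so this order follows at least in part from the choice. Chosen anew with equal totals, regions had medians of -0.12, -0.15 and -0.24 for these differences. Chosen anew with each stage centred on its median, they had -0.27, -0.35 and -0.56. The stage totals count reads in regions only, so they are not the depth of the libraries. No source used here says whether the libraries had been matched in depth before deposit. Whether depth sets the sign of the small drift was not tested.

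From end to end, 1849 of the strong step-limited regions (25.4%) had a difference of -1 or lower and 72 (0.99%) of 1 or higher. Among all regions narrower than 1500 bp these shares were 14.8% and 9.73%. With equal totals the same regions leaned the other way, with 133 (1.83%) at -1 or lower and 711 (9.78%) at 1 or higher, against 6.72% and 19.6% of all narrow regions, and 3245 of them lay below 0 in place of 5655. Choosing regions anew on that scale gave 9160, of which 5782 (63.1%) lay below 0, with 1127 (12.3%) at -1 or lower and 280 at 1 or higher. The reversed lean of the same regions thus follows at least in part from choosing them on the deposited scale. On the deposited scale, 5351 strong step-limited regions (73.6%) stayed within 2-fold across all stages, against 63.1% of all narrow regions. The choice already held the strong step-limited regions under 2-fold at each step, so this contrast follows in part from it. A range over the 3 stages under 0.5 log2 units was found in 1921 (26.4%, against 25.8% of all narrow regions) and under 0.25 in 566 (7.78%, against 7.53%), which is near the share in all narrow regions. Set against counting error alone, the 95% interval of the end-to-end difference held 0 in 1322 regions (18.2%), lay below 0 in 4947 (68.0%) and above 0 in 1003 (13.8%), on the deposited scale.

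The order of the stages fell into 4 patterns. The largest, with 3900 regions (53.6%), was lower at both steps, against 24.6% of all narrow regions and 70.6% of the strong regions outside the step limits. The 3900 regions were the strongest of the 4 patterns in progenitors, with a median of 4.12, and had 3.68 at day 1 and 3.15 at day 10. Regions higher at day 1 and then lower numbered 1476 (20.3%, against 29.0% of all narrow regions) and had medians of 3.20, 3.51 and 3.04. Regions lower at day 1 and then higher numbered 1334 (18.3%, against 26.7%) and had medians of 3.06, 2.62 and 2.997. The smallest pattern, 517 regions higher at both steps (7.11%, against 14.8%), began at 2.60 in progenitors and had 2.96 at day 1 and 3.31 at day 10. The medians of the 4 patterns lay closest at day 10, within 2.997 to 3.31, and spanned 2.60 to 4.12 in progenitors and 2.62 to 3.68 at day 1. The patterns were sorted by these same values, so their differences in level follow at least in part from the sorting. The other 45 regions had a step of exactly 0. Of the strong regions outside the step limits, 18.5% were higher then lower, 8.59% lower then higher and 2.14% higher at both steps. The step limits act on these same values, so the contrast with that set follows at least in part from the choice. With equal totals and the limits applied anew, 38.8% of the regions chosen were lower at both steps and 16.3% higher at both.

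On the deposited scale the downward drift grew with the strength of the mark. Among the 726 strong step-limited regions with a mean enrichment of 2 to 2.5, the median end-to-end difference was -0.079 and 22.3% were lower at both steps. Among the 1624 regions with a mean of 3 to 3.5 it was -0.53, and 52.3% were lower at both steps. Among the 344 regions with a mean of 5 or more it was -1.15, and 85.8% were lower at both steps. With equal totals the medians of the same 3 classes were 0.54, 0.12 and -0.47, so the slope from weak to strong regions was present under both scalings while the point where it crosses 0 was not the same. Mean enrichment contains the progenitor level, and a limit of 2 at every stage leaves weak regions little room to fall, so part of this order is set by the choice.

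The share of strong regions that passed the step limits also varied with level on the deposited scale. It was 98.0% at a mean of 2 to 2.5, 69.8% at 3 to 3.5 and 35.6% at 5 or more. With equal totals, the strong regions of the same classes had both steps within the limits in 91.0%, 78.8% and 77.8% of cases. The under-representation of the very strongest regions was thus much smaller on that scale.

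**Figure D3:**
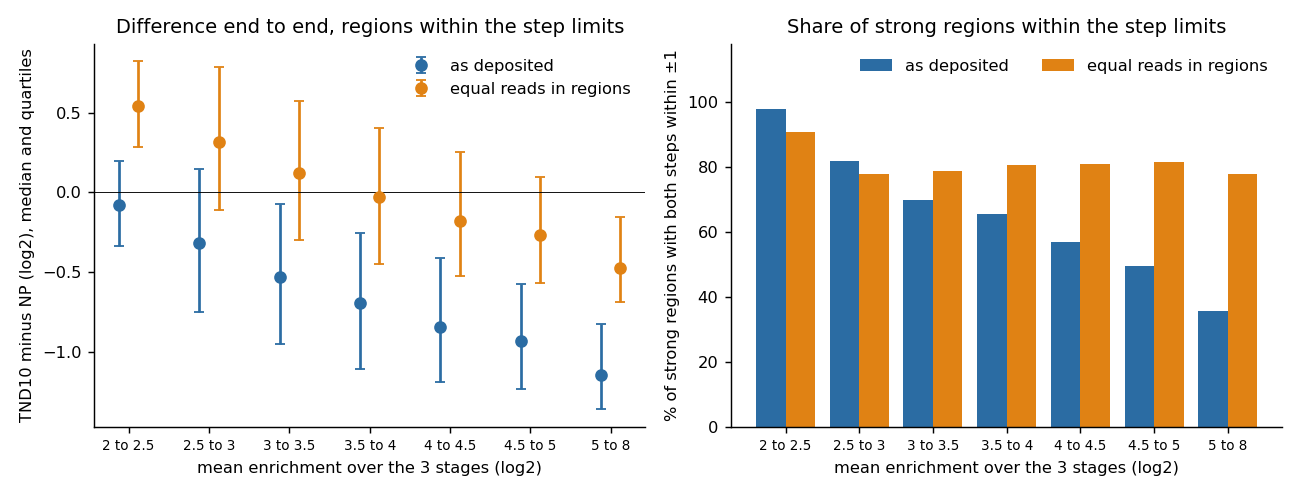
Left, the end-to-end difference TND10 minus NP in log2 units (points, median; bars, quartiles) of the strong step-limited regions by mean enrichment. Right, the percentage of strong regions with both steps within the limits. Blue is the deposited scale and orange is equal reads per stage. On the left the medians decline from -0.079 to -1.15 in blue and from 0.54 to -0.47 in orange, and on the right the blue bars decline from 98.0% to 35.6% while the last 6 orange bars lie between 77.8% and 81.6%.

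The single regions with the highest mean were high at every stage and lowest at day 10. H3K27ac region 48047, which is 1002 bp wide, had 7.59 log2 units in progenitors, 7.01 at day 1 and 6.06 at day 10, from 5094, 3404 and 1748 reads. H3K27ac region 74201 (1130 bp) had 7.32, 6.83 and 5.88, and H3K27ac region 59548 (897 bp) had 7.12, 6.59 and 5.88. H3K27ac region 106962 (674 bp) had 6.87, 6.53 and 5.75, and H3K27ac region 48048 (786 bp) had 6.68, 6.54 and 5.82. Of these 5, region 48048 differed least from end to end, by -0.86 ± 0.042 log2 units (counting SE), and the other 4 differed by -1.12 to -1.53. Regions 48047 and 48048 follow each other in the numbering of the table.

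Other regions hardly moved. H3K27ac region 138924, 1446 bp wide, had 4.27 in progenitors, 4.26 at day 1 and 4.25 at day 10, from 789, 787 and 782 reads. H3K27ac region 22705 (832 bp) had 3.58, 3.56 and 3.58, and H3K27ac region 116262 (1156 bp) had 3.66, 3.67 and 3.65. H3K27ac region 100212 (1375 bp) had 3.26, 3.25 and 3.28, and H3K27ac region 34028 (1179 bp) had 3.32, 3.32 and 3.35. The range over the stages of these 5 was 0.013 to 0.028 log2 units, below the counting SE of 0.071 to 0.087 of their end-to-end differences. They are even on the deposited scale, where a stage with fewer reads in all regions is not scaled up.

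At the other end, some regions passed both steps and still differed nearly 4-fold between progenitors and day 10. H3K27ac region 49532 (1142 bp) had 2.26, 3.20 and 4.19, an end-to-end difference of 1.93 ± 0.090 (counting SE). H3K27ac region 86348 (494 bp) had 2.36, 3.32 and 4.18, and H3K27ac region 126331 (1273 bp) had 2.08, 2.91 and 3.85. In the opposite direction, H3K27ac region 79538 (671 bp) had 4.72, 3.75 and 2.76, an end-to-end difference of -1.96 ± 0.11. H3K27ac region 73336 (934 bp) had 4.47, 3.504 and 2.52, and H3K27ac region 85971 (1140 bp) had 5.60, 4.64 and 3.65. All 6 moved in 1 direction at both steps.

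**Figure D4:**
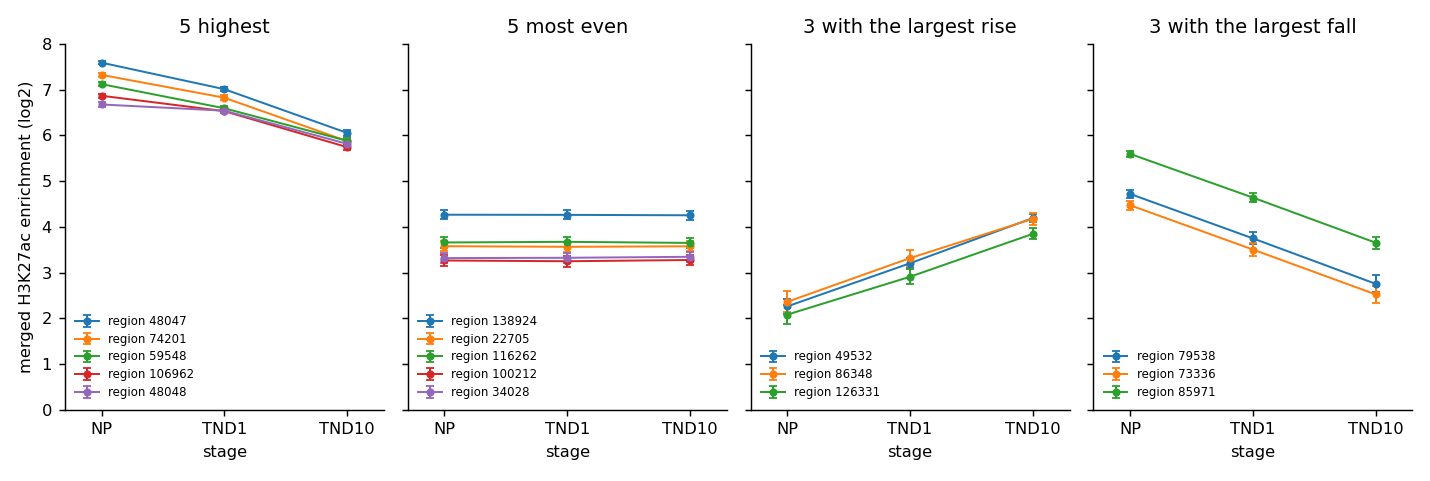
Merged H3K27ac enrichment in log2 units (vertical axis) at NP, TND1 and TND10 for the 5 strong step-limited regions with the highest mean, the 5 with the smallest range, the 3 with the highest and the 3 with the lowest end-to-end difference. Bars are 95% counting intervals of the stage reads, without the counting error of the reference. The highest regions end between 5.75 and 6.06 at day 10, and the most even ones keep a range of at most 0.028.

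The strong step-limited regions were wide for this table. Their median width was 895 bp, with the middle 50% between 649 and 1158 bp, against a median of 299 bp in all regions under 1500 bp. The strong regions outside the step limits had the same median, 895 bp. The share of regions that were strong step-limited was 0.245% among those of 151 to 299 bp, 8.36% at 500 to 699 bp, 24.5% at 900 to 1099 bp and 39.5% at 1300 to 1499 bp. Once a region was strong at every stage, the share varied less with width: 77.5%, 67.8%, 62.9% and 71.0% of the strong regions in these classes passed both steps. Because 16 is added to the reads and to the reference, a region with 0 reference reads needs 48 reads to reach a value of 2, so a narrow region needs a high density to enter. Regions of 151 to 299 bp that did enter had a median of 159 reads in progenitors, 141 at day 1 and 131 at day 10.

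**Figure D5:**
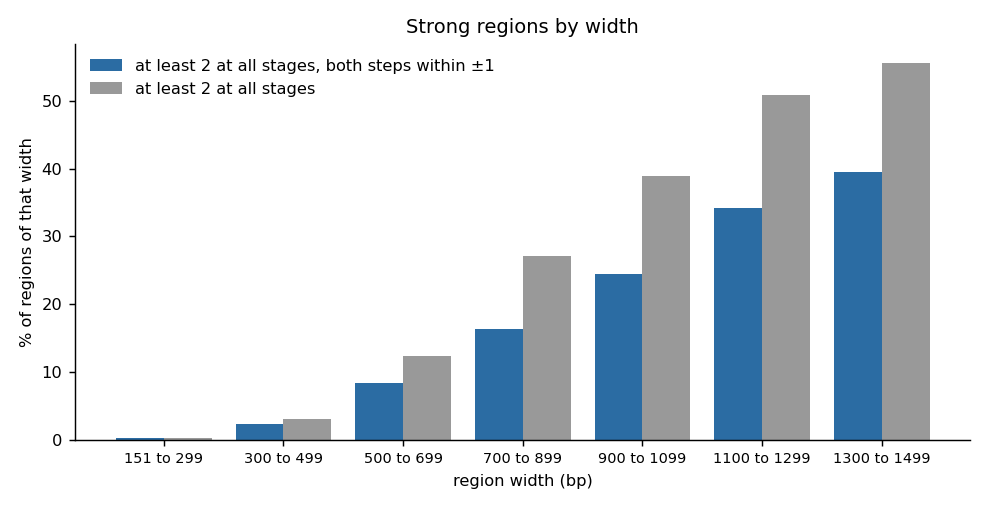
Percentage of regions of each width class (horizontal axis, bp) that were at least 2 at all stages with both steps within the limits (blue) and that were at least 2 at all stages (grey). Both shares climb with width, to 39.5% and 55.6% at 1300 to 1499 bp.

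The narrowest regions, H3K27ac region 27312, H3K27ac region 82469 and H3K27ac region 127782, were 151 bp wide each. Region 27312 had 2.44, 2.19 and 2.76 from 128, 105 and 164 reads, region 82469 had 2.29, 2.92 and 2.25 from 70, 117 and 68 reads, and region 127782 had 3.32, 2.72 and 2.14 from 176, 111 and 69 reads. The widest, H3K27ac region 119554 and H3K27ac region 121358 at 1498 bp and H3K27ac region 23254 at 1497 bp, rested on more reads. Region 119554 had 3.24, 2.76 and 3.13 from 768, 548 and 712 reads. Region 121358 had 5.65, 4.89 and 4.15, and region 23254 had 5.42, 5.19 and 4.39. Beyond the width limit, 903 of 2525 regions of 1500 bp or more met the other limits, with medians of 3.999, 3.83 and 3.61 and an end-to-end median of -0.46.

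Several regions sat at the limits. H3K27ac region 105761 entered with 2.0001 at day 10 and H3K27ac region 81133 with 2.0004 in progenitors, while H3K27ac region 23800 stayed out with 1.99995 at day 1 and H3K27ac region 73084 with 1.9996 at day 10. At the lower step limit, H3K27ac region 100211 and H3K27ac region 52318 entered with a second step of -0.9991 and -0.9990, and H3K27ac region 13277 and H3K27ac region 15254 stayed out at exactly -1. At the upper limit, H3K27ac region 9588 entered with a first step of 0.998 and H3K27ac region 30039 with a second step of 0.997, while H3K27ac region 121215 and H3K27ac region 87400 stayed out with second steps of 1 and 1.0024. At the width limit, H3K27ac region 53172 and H3K27ac region 58764 stayed out at 1500 bp. In all, 20 strong regions had a step of exactly 1 or -1 and none past it.

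Counting error bears on membership near these limits. In 5573 strong step-limited regions (76.6%) the 95% counting intervals of both steps lay within the limits. The interval of the first step reached a limit in 672 and that of the second in 1128. Of the 3689 strong regions left out, 1328 (36.0%) had no step whose interval lay wholly outside the limits. In 1783 strong step-limited regions (24.5%) the scaled reference was smaller than the added 16, so the added count set more of the denominator than the reference did.

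Strong step-limited regions tended to follow each other in the numbering of the table, whose relation to genome position no source used here states. The next region in the numbering was also strong step-limited in 23.4% of cases, against 4.07% after other regions narrower than 1500 bp. The share was 12.05% at a distance of 5 numbers, 7.29% at 100 and 5.77% at 1000, the last close to the 5.17% among all regions. Next regions that were not themselves strong step-limited had a median mean enrichment of 1.04, against 0.60 after other narrow regions. Other narrow regions are mostly weak, and neighbours of the strong regions outside the step limits were not counted. Runs of 2 or more held 2950 of the 7272 regions (40.6%), and 321 runs had at least 3. The longest had 10 regions and occurred 2 times. In the run of regions 106945 to 106954 the medians were 5.16 in progenitors, 5.18 at day 1 and 4.80 at day 10, and in the run of regions 131744 to 131753 they were 3.37, 3.46 and 2.94. Both runs were singled out after their values were seen. Within them end-to-end differences went both ways, from -0.93 to 0.95 in the first and from -1.23 to 0.29 in the second.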

How the data were processed

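ChIP-seq for H3K27ac was done on 2 libraries per stage. The authors deposited log2 values of merged enrichment, 1 per region and stage, with the width of each region, per the file headers. The build was mm9 and the tools TopHat, Bowtie, HTSeq and DESeq, per the submitters' processing notes; their roles, the peak caller and the reference: not given in the sources used here. Values of single libraries were not used here, so the planned tests between libraries and the runs leaving out a library were not run. Reads were recovered by finding, per region, the smallest reference count for which the reads of all stages were whole within 0.003, with 1 reference read worth 0.807 reads. This worked for 99.99% of regions. On 3000 simulated regions the true reads came back in 100%. The simulation set a smaller worth of a reference read than in these data and took the added 16 as known. Values were rounded to the ninth decimal, since 1 region with an exact 2-fold step would otherwise have passed. Intervals of 95% are 1.96 counting SE of log2(reads + 16), with Poisson counting. The reference is the same at every stage, so its counting error drops out of differences but not of levels. It was left out. For equal totals, reads were scaled to the mean of the stage totals. The regions, limits and lists were chosen with earlier results of these data known. Named regions were the 5 highest means, the 5 smallest ranges at a mean of 3 or more, the 3 highest and 3 lowest end-to-end differences, the 3 widest and narrowest, and 2 on each side of each limit. The RNA, FAIRE and NMDA tables were not analysed here. Work was done in Python 3.11.15 with pandas 2.3.3 and numpy 2.4.6.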

Additional observations from a re-analysis of the deposited data

How the results depend on the processing

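No paired analysis was possible because the deposited values merge both libraries of a stage. The number of regions was 7272; it stayed within 1.5 times of this in 6 of 10 alternatives and came to 3482 with a minimum of 3, 2604 with a step limit of 0.5, 4370 with a width under 1000 bp and 12371 with an added count of 1 (chosen after seeing the data). Median levels at NP, TND1 and TND10 were 3.17, 2.95 and 2.79 with a minimum of 1.5, 3.99, 3.74 and 3.39 with 2.5, and 4.40, 4.09 and 3.69 with 3. They were 3.21 at NP and 3.11 at TND1 with a step limit of 0.5, 3.32 and 3.19 with the end-to-end difference also limited, 3.47 at NP under 1000 bp, and 3.55 at TND1 and 3.48 at TND10 with equal totals and the limits applied anew. The second step and the end-to-end difference came to -0.12 and -0.20 with a step limit of 0.5, and -0.15 and -0.24 with equal totals applied anew. The end-to-end difference was -0.33 with that difference also limited and -0.36 with an added count of 1. For the regions kept as chosen, equal totals (chosen after seeing the data) gave -0.037 at the first step and turned the second step to 0.069 and the end-to-end difference to 0.092; the reads in regions differ between stages, which this scaling removes. Centring each stage on its median gave 7448 regions, of which 7212 were among the 7272. The 7448 had median steps of -0.27 and -0.35 and an end-to-end median of -0.56. Of them, 77.9% lay below 0 from end to end and 25.3% were at -1 or lower. The equal-totals choice had 9160, of which 6486 were shared, that is 89.2% of the 7272 and 70.8% of the 9160. A wider tolerance for whole reads left the median reads per region at 500, 420.5 and 346.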
